A study of Homo sapiens with 18 samples.

Results

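The genes described here are the 5 NF-κB subunits NFKB1, NFKB2, RELA, RELB and REL and 4 feedback inhibitors of the pathway, NFKBIA, NFKBIE, TNFAIP3 and BIRC3. They were chosen by symbol for their place in the pathway, and make up 9 of the 38716 gene symbols listed in the tables. Levels were measured by mRNA-seq and by Ribo-seq, in which the stretches of mRNA covered by ribosomes (footprints) survive a nuclease and are sequenced. Both assays were run on IMR90, primary human fetal lung fibroblasts, in 3 conditions with 3 replicates each, giving 9 libraries an assay. Young cells were proliferating, old cells had reached replicative senescence, and ICM cells were proliferating cells given inflachromene, an inhibitor of the chromatin proteins HMGB1 and HMGB2. All 3 conditions share IMR90, so that the replicates are cultures of these cells and not donors. The labels give neither a passage number nor an inhibitor dose or duration. ICM against young and old against young use the same young libraries.

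NF-κB subunits pair into dimers that bind kB sites in DNA. In the canonical branch, IκB proteins such as the products of NFKBIA and NFKBIE hold dimers of p50 (from NFKB1) and RELA or REL in the cytoplasm until a kinase complex marks the IκB for degradation, and in the non-canonical branch the product of NFKB2 is cut to p52, which pairs with RELB. Active dimers switch on genes of their own subunits and inhibitors, and these loops limit the response. Senescent fibroblasts are known for secreting cytokines and chemokines, many of which are NF-κB targets.

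By mRNA-seq, 8 of the 9 genes fell in ICM cells and 7 of 9 fell in old cells, each against young cells, where 36.1% and 33.7% of all genes tested fell. RELB changed most under ICM, being 4.82-fold lower, followed by TNFAIP3 at 4.58-fold and BIRC3 at 4.19-fold lower. RELA stood apart from the other 8, since it rose 1.40-fold in old cells and was not called in ICM cells. Footprints of most of the 9 genes were too few to test.

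The mRNA-seq libraries held between 7902427 and 14144455 reads in coding genes, and the Ribo-seq libraries between 46239 and 1718521 reads in coding sequences (CDS). Young replicate 1 and old replicate 2 of Ribo-seq stood apart, with 34.4% and 15.0% of their reads in the CDS, so Ribo-seq results are also given without them where that matters. All 8 fibroblast markers exceeded 1 CPM (counts per 1000000 coding-gene reads, scaled by TMM) in every mRNA-seq library. Their summed level was 28712 to 32517 CPM in young, 27034 to 30391 CPM in old and 12152 to 12632 CPM in ICM libraries. COL1A1 made up most of that difference, with 13266 to 15352 CPM in young and 2962 to 3201 CPM in ICM libraries. COL1A2, COL3A1, VIM, THY1 and PDGFRB were also lower in every ICM library than in every young one. VIM, for example, had 3754 to 4051 CPM in young and 1625 to 1689 CPM in ICM libraries. DCN was instead higher in ICM (1467 to 1741 CPM, against 1380 to 1445 CPM in young) and LUM overlapped (138 to 152 and 143 to 149 CPM). Of the immune markers, PTPRC, CD14, LYZ and CD3E were at or under 1 CPM in every library, while CD68, a lysosomal protein gene, had 19.4 to 21.3 CPM in young, 31.5 to 34.5 CPM in old and 53.1 to 65.2 CPM in ICM libraries. The endothelial markers PECAM1 and CDH5 were at or under 1 CPM in every library, and VWF reached 3.00 to 3.90 CPM in ICM. The part of these shifts in the results below was not tested. In bulk samples, fewer cells expressing a gene and less RNA of it per cell cannot be told apart.

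The promoters of the 9 genes are shown first, because several of them are textbook targets of NF-κB itself. RefSeq windows on GRCh38.p14, from 250 bases before a transcription start to 50 after it, were found for 7 of the 9 genes (11 windows in all), and RELB and NFKBIE had no entry. The windows were searched on both strands for the kB consensus, a 10-base motif, and 6 of the 7 genes held at least 1 match. Among all 35116 windows in the table, 11.3% held a match (13.3% of 27305 genes). The runs below are written along the gene's strand, with the match in capitals and 8 bases on either side. The REL match and NFKB2 match 1 each overlap a second match shifted by 1 base, which is not printed. All lie upstream of the start, and NFKB2 has matches in 2 of its 3 windows.
REL site, chr2:60881519-60881544: tcagccgcGGGAAATTCCcctcccgc
NFKB1 site, chr4:102501302-102501327: acgtcagtGGGAATTTCCagccagga
NFKB2 site 1, chr10:102394463-102394488: aacgtcatGGGAATTCCCccctccgg
NFKB2 site 2, chr10:102394492-102394517: gccgagaaGGGGCTTTCCcggccctg
NFKB2 site 3, chr10:102395521-102395546: cccccaccGGGGCTTCCCggattctc
NFKB2 site 4, chr10:102395676-102395701: gtattttcGGGACTTTCCtaagctgc
NFKBIA site, chr14:35404813-35404838: actggcttGGAAATTCCCcgagcctg
TNFAIP3 site 1, chr6:137867184-137867209: gtgactttGGAAAGTCCCgtggaaat
TNFAIP3 site 2, chr6:137867196-137867221: agtcccgtGGAAATCCCCgggcctac
BIRC3 site 1, chr11:102317277-102317302: tgggtcatGGAAATCCCCgagtgggt
BIRC3 site 2, chr11:102317341-102317366: ttaccgctGGAGTTCCCCtaagtcct

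In REL, NFKB1 and NFKB2 the capitals match the consensus as written. In NFKBIA, TNFAIP3 and BIRC3 the match is on the opposite strand, so that the reverse complement of the capitals fits it. These matches are not measurements of binding, which was not assayed here. The match began 49 bases before the start in NFKB1, 47 in REL and 81 in NFKBIA. It began 67 and 55 bases before the start in TNFAIP3, and 199 and 135 in BIRC3. Neither RELA window held a match. The match is also found in 15 of 26 genes (57.7%) of a list of NF-κB targets with a window, in 8 of 22 (36.4%) of a list of other inhibitors and in 3 of 25 (12%) of a list of receptors, adaptors and kinases upstream of NF-κB. These lists are described further on.

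In the annotation used (GENCODE on GRCh37), NFKB1 spans chr4:103422487-103538459 with 24 exons and NFKB2 spans chr10:104153867-104162281 with 23 exons, counted in the canonical transcript. RELA (chr11:65421070-65430561), RELB (chr19:45504719-45541450) and REL (chr2:61108626-61158747) have 11, 12 and 10 exons. NFKBIA lies at chr14:35870285-35873955 and NFKBIE at chr6:44225903-44233525, each with 6 exons. TNFAIP3 lies at chr6:138188351-138204451 and BIRC3 at chr11:102188215-102210134, each with 9 exons. Their coding lengths run from 951 bases (NFKBIA) to 2907 bases (NFKB1).

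Compared between genes per coding length, RELA had the most mRNA in all 3 conditions. In young cells RELA mRNA stood at 61.0 ± 4.77 CPM per kilobase of coding length (SD, n = 3). NFKBIA followed at 45.7 ± 3.01, NFKB1 at 24.4 ± 1.49, NFKB2 at 24.1 ± 0.50, NFKBIE at 20.1 ± 1.43 and RELB at 16.2 ± 0.41, on the same scale. BIRC3 at 4.35 ± 1.07, TNFAIP3 at 3.77 ± 1.11 and REL at 1.21 ± 0.39 were the lowest. The young replicates of NFKB1 and NFKB2 overlapped, as did those of BIRC3 and TNFAIP3, and the other neighbours in this order did not. In ICM cells the order was RELA at 65.6 ± 4.61, NFKBIA at 22.1 ± 2.69, NFKB2 at 16.4 ± 2.39, NFKB1 at 10.5 ± 0.24, NFKBIE at 7.35 ± 0.53, RELB at 3.73 ± 0.09, BIRC3 at 1.16 ± 0.18, TNFAIP3 at 0.74 ± 0.19 and REL at 0.37 ± 0.11.

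Among the subunits, NFKB1 encodes p105, the precursor of p50. Its mRNA was at 54.2, 48.3 and 53.2 CPM in the 3 young libraries, 25.8, 24.8 and 29.0 CPM in the old and 21.7, 21.8 and 22.5 CPM in the ICM libraries. No old or ICM library reached a young one, and every ICM library lay below every old one. On the log2 scale used from here on, NFKB1 fell by 1.23 under ICM (SE 0.08, adjusted p = 6.38e-12, edgeR quasi-likelihood test over 13173 genes) and by 0.97 in old cells (SE 0.08, adjusted p = 5.38e-10). The ICM level was also under the old one, by 1.20-fold (log2 change -0.27, adjusted p = 0.0105). Without old replicate 3, that difference was no longer called (log2 change -0.20, adjusted p = 0.0661).

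NFKB2 encodes p100, the precursor of p52 and itself an inhibitor. Its level was 43.2, 42.0 and 42.3 CPM in young, 36.3, 32.0 and 43.1 CPM in old and 25.5, 27.8 and 31.4 CPM in ICM libraries. Old replicate 3 lay among the young libraries, and the ICM libraries lay below all others. NFKB2 fell by 0.59 in ICM against young (SE 0.10, adjusted p = 1.22e-05) and by 0.39 against old cells (adjusted p = 0.00139). The old-young change of -0.20 was not called (95% interval -0.40 to -0.00058, adjusted p = 0.0718). It was called without old replicate 3 (log2 change -0.32, adjusted p = 0.00371).

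RELA encodes p65, the main activating subunit of the canonical branch. It was the only one of the 9 genes to rise in any mRNA-seq comparison. Young libraries held 96.5, 92.0 and 83.7 CPM, old libraries 133, 115 and 134 CPM, and ICM libraries 95.9, 90.9 and 94.4 CPM. All old libraries were above all others, while young and ICM libraries were intermingled. RELA rose by 0.49 in old cells (SE 0.07, adjusted p = 3.13e-06). Under ICM the change was 0.05 (95% interval -0.10 to 0.20, adjusted p = 0.55), and against old cells ICM cells were lower by 1.35-fold (log2 change -0.44, adjusted p = 1.19e-05).

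RELB, the partner of p52, had the widest span of group means among the 9 genes, 2.16 on the log2 CPM scale. It was at 23.7, 22.7 and 21.5 CPM in young, 12.3, 9.49 and 12.9 CPM in old and 4.81, 4.90 and 4.32 CPM in ICM libraries. The 3 groups were fully separate, in the order young, old, ICM. RELB fell by 2.27 in ICM (SE 0.13, adjusted p = 3.76e-13) and by 0.98 in old cells (SE 0.11, adjusted p = 6.54e-08). ICM cells were 2.44-fold below old cells (log2 change -1.28, SE 0.14, adjusted p = 4.88e-08).

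REL, the c-Rel subunit best known from lymphoid cells, was the least abundant subunit. Its level was 3.23, 4.71 and 4.38 CPM in young, 1.61, 2.59 and 2.41 CPM in old and 1.88, 1.57 and 2.12 CPM in ICM libraries. Both later groups lay below the young libraries and overlapped each other. REL fell by 1.16 in ICM (SE 0.22, adjusted p = 5.93e-05) and by 0.89 in old cells (SE 0.21, adjusted p = 0.000888). ICM and old cells differed by -0.27 with a 95% interval of -0.78 to 0.23, which was not called (adjusted p = 0.337).

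Among the inhibitors, NFKBIA encodes IκBα, which holds RELA dimers in the cytoplasm. NFKBIA mRNA was at 40.6, 36.6 and 39.2 CPM in young, 19.6, 17.9 and 30.5 CPM in old and 18.6, 16.4 and 17.5 CPM in ICM libraries. Old replicate 3 stood between the young libraries and the rest, and the other old libraries overlapped ICM. NFKBIA fell by 1.14 in ICM (SE 0.13, adjusted p = 7.33e-08) and by 0.78 in old cells (SE 0.13, adjusted p = 1.49e-05). The ICM-old change of -0.36 (adjusted p = 0.0272) rested on few libraries. It was -0.09 without old replicate 3 (adjusted p = 0.464), and it also lost its call without ICM replicate 2 (adjusted p = 0.0851), without ICM replicate 3 (adjusted p = 0.0569) and with CDS reads only (-0.27, adjusted p = 0.125).

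NFKBIE encodes IκBε, an IκB with slower feedback than IκBα. It was at 22.8, 18.4 and 17.9 CPM in young, 12.8, 10.7 and 12.1 CPM in old and 6.53, 6.11 and 5.60 CPM in ICM libraries, in 3 separate groups like RELB. NFKBIE fell by 1.68 in ICM (SE 0.13, adjusted p = 5.99e-11) and by 0.73 in old cells (SE 0.11, adjusted p = 7.23e-06). ICM cells were 1.93-fold below old cells (log2 change -0.95, adjusted p = 2.21e-06).

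TNFAIP3 encodes A20, a ubiquitin-editing enzyme that stops signalling upstream of the IκB kinase. Its level was 11.7, 7.85 and 7.91 CPM in young, 2.15, 1.93 and 5.28 CPM in old and 2.33, 1.57 and 1.87 CPM in ICM libraries. Old replicate 3 was well above the other old libraries but still under every young one. TNFAIP3 fell by 2.19 in ICM (SE 0.27, adjusted p = 1.83e-07) and by 1.54 in old cells (SE 0.25, adjusted p = 1.13e-05). The ICM-old change of -0.66 was not called (95% interval -1.34 to 0.03, adjusted p = 0.0876), but it was called without old replicate 2 (-0.97, adjusted p = 0.014) and with no filter on low counts (adjusted p = 0.0206).

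BIRC3 encodes cIAP2, a ubiquitin ligase that works in TNF receptor complexes and helps to degrade the kinase of the non-canonical branch. It was at 8.93, 6.36 and 7.53 CPM in young, 3.98, 4.08 and 6.12 CPM in old and 1.95, 1.67 and 1.70 CPM in ICM libraries. The groups did not overlap, although old replicate 3 came close to the lowest young library. BIRC3 fell by 2.07 in ICM (SE 0.21, adjusted p = 8.69e-09) and by 0.67 in old cells (SE 0.17, adjusted p = 0.00177). ICM cells were 2.63-fold below old cells (log2 change -1.40, SE 0.22).

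**Figure D1:**
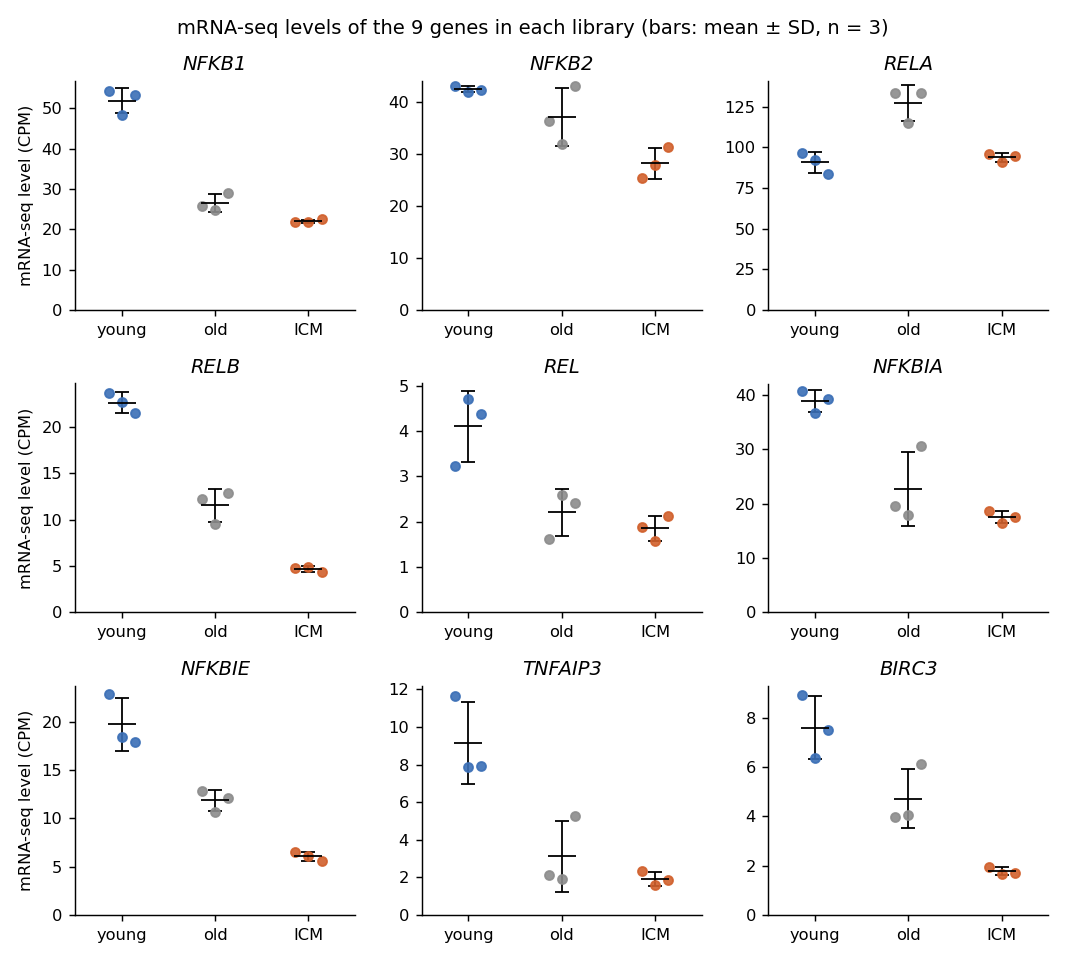
mRNA-seq level in CPM (y axis, from 0, on its own scale in each panel) of each gene in the 3 young, 3 old and 3 ICM libraries (x axis). Points are libraries and bars the mean and SD, and all genes but RELA have their highest mean in young cells.

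Over the 9 genes, ICM against young gave 8 calls, all downward, where 36.1% of the 13173 genes tested were called downward, 34.9% upward and 71% in either direction. Old against young gave 7 downward calls and 1 upward call (33.7% of all genes downward, 32.4% upward, 66.1% in either). ICM against old gave 7 downward calls, the exceptions being REL and TNFAIP3 (32.6% of all genes downward, 30.7% upward, 63.3% in either). The median log2 change of the 9 genes was -1.23, -0.78 and -0.44 in the same order, beside -0.01 in each comparison over all genes tested. All ICM libraries lay below all young libraries for 8 of the 9 genes, against 37.6% of all genes. They lay below all old libraries for 6 of the 9, against 33.7% of all genes. Old libraries lay below all young ones for 7 of the 9 (34.4% of all genes), and above them for RELA (32.7%).

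**Figure D2:**
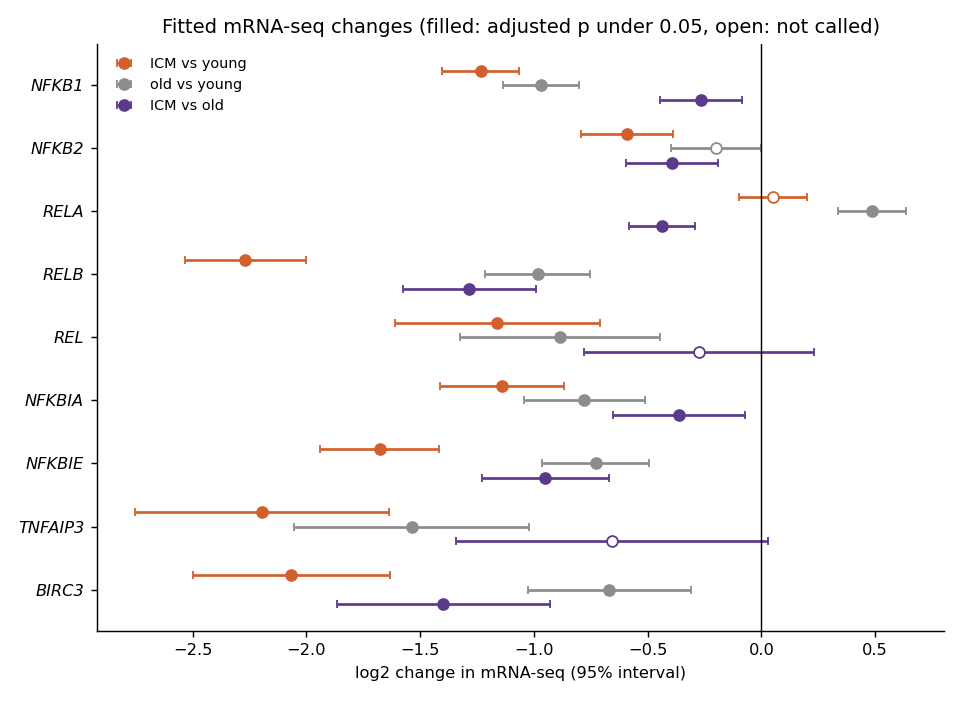
Log2 change in mRNA-seq (x axis) for each gene (y axis) in ICM against young, old against young and ICM against old cells, with 95% intervals from the edgeR fit. Filled points have an adjusted p under 0.05, and RELA is the one gene with a called change above 0, in old cells.

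In ICM against young cells, the fitted changes of RELB, NFKBIE and BIRC3 were -2.27, -1.68 and -2.07, beside -0.98, -0.73 and -0.67 in old against young cells. For NFKB1 the same values were -1.23 and -0.97, and for NFKBIA -1.14 and -0.78. For TNFAIP3 they were -2.19 and -1.54, and for REL -1.16 and -0.89. For NFKB2, whose product pairs with RELB, they were -0.59 and -0.20. The ICM-old difference itself was called for RELB, NFKBIE, BIRC3, NFKB1, NFKB2, NFKBIA and RELA, with the limits given above, and not for TNFAIP3 and REL.

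The make-up of the subunit mRNA, per coding length, shifted toward RELA. RELA took 48.0 ± 2.42% of the reads of the 5 subunits in young, 66.6 ± 1.10% in old and 67.9 ± 1.97% in ICM cells (SD, n = 3). The share of RELB went from 12.8 ± 0.19% in young to 6.56 ± 0.37% in old and 3.88 ± 0.33% in ICM cells. NFKB1 went from 19.3 ± 1.33% to 9.69 ± 0.74% and 10.9 ± 0.42%. NFKB2 had 19.0 ± 0.76%, 16.6 ± 0.97% and 16.9 ± 1.98%, lower in every old library (15.8% to 17.7%) than in every young one (18.3% to 19.8%), while ICM libraries overlapped both (14.8% to 18.7%). REL stayed under 1%, on average, throughout. For NFKBIA the level per coding length, divided by that of RELA in the same library, averaged 0.75 ± 0.09 over young, 0.30 ± 0.06 over old and 0.34 ± 0.02 over ICM libraries. The lowest young ratio was 0.69 and the highest in the other libraries 0.37. These shares and ratios follow from the same reads as the changes above and were not tested.

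**Figure D3:**
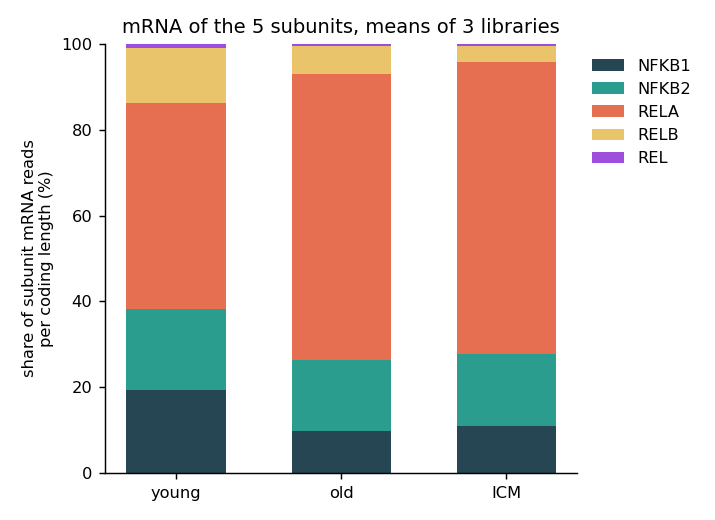
Share of each of the 5 subunits (stacked bars, y axis in percent) in their summed mRNA reads per coding length, as the mean of 3 libraries in young, old and ICM cells (x axis). RELA takes the largest share in each condition, 48.0% in young, 66.6% in old and 67.9% in ICM cells.

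In the deposited counts, reads were assigned to different parts of the 9 mRNAs. In young cells the CDS held 97.1 ± 0.45% of the NFKB2 reads and 86.8 ± 1.55% of the NFKB1 reads, whereas over all coding genes it held 64.5 ± 1.56%. REL was the reverse, with 32.3 ± 4.92% of its reads in the CDS and 62.4 ± 4.66% in the 3′ UTR, so that its level per coding length rests on 42 CDS reads over the 3 young libraries. TNFAIP3 had 31.1 ± 1.29% of its young reads in the 3′ UTR. RELA had 22.9 ± 0.20% there in young, 24.2 ± 2.40% in old and 22.1 ± 2.12% in ICM cells. Over the young libraries NFKB2 had 1 read assigned to its 3′ UTR, and NFKBIE had 0 in its 5′ UTR in every condition. How far these shares reflect the assignment of regions was not tested.

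The genes whose mRNA-seq pattern was most like that of RELB over the 9 libraries were MYH11, STMN3 and GUSB. MYH11, a smooth muscle myosin gene, averaged 31.6 CPM in young, 18.4 CPM in old and 9.66 CPM in ICM cells (Pearson r of 0.998 with RELB on log2 CPM). STMN3 (r of 0.996) averaged 43.6, 8.63 and 0.87 CPM in the same order. GUSB, which encodes the lysosomal enzyme β-glucuronidase, averaged 24.4, 16.1 and 9.90 CPM (r of 0.995). The 9 points fall into 3 conditions, so these values describe the order and spacing of the groups more than single libraries.

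Footprints were scarce. Only RELA and NFKB2 passed the filter on low counts in Ribo-seq, out of 4643 genes tested. RELA had 9, 50.5 and 108.5 CDS footprints in young replicates 1 to 3, 161, 3 and 45 in old and 9, 11 and 9 in ICM replicates, with fractions as the tables give them. NFKB2 had 1, 31 and 102 in young, 105, 4 and 60.5 in old and 13, 5 and 0 in ICM replicates. Each group thus held at least 1 library with fewer than 10 footprints for both genes.

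Footprints by library were scaled with TMM to CPM of the CDS reads of tested genes. NFKB2 footprints were at 19.8, 49.5 and 64.9 CPM in young, 74.7, 80.5 and 123 CPM in old and 64.1, 68.2 and 0 CPM in ICM libraries. All old libraries were above all young ones, as for 20.3% of the genes tested, and above all ICM ones (13.6%), and the ICM libraries ranged over the young values. The old-young change was 0.68 (SE 0.29, unadjusted p = 0.027, adjusted p = 0.0677, edgeR) and was not called. With only the young and old libraries in the fit it was called (0.64, adjusted p = 0.0168), and likewise without ICM replicate 1 (0.65, adjusted p = 0.033) or ICM replicate 3 (0.67, adjusted p = 0.034). For comparison, its mRNA change in old cells was -0.20.

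RELA footprints were at 178, 79.9 and 68.7 CPM in young, 114, 60.4 and 92.4 CPM in old and 44.3, 150 and 206 CPM in ICM libraries, with no group apart. Its fitted changes were 0.29 in ICM against young (95% interval -0.58 to 1.16), 0.42 in old against young (-0.16 to 0.99) and -0.13 in ICM against old (-0.97 to 0.71). The plain mean of the libraries was 109 CPM in young, 89.1 CPM in old and 133 CPM in ICM, so the fitted signs in old against young and ICM against old ran against the means, and young replicate 1 rests on 9 footprints. None of the 3 changes was called, and each interval covers a change of the size of the RELA mRNA differences.

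In all, edgeR and DESeq2 each called 0 of the members tested in every Ribo-seq comparison, where edgeR called 26.6% of all genes tested in ICM against young, 36.3% in old against young and 13.4% in ICM against old. At an unadjusted p under 0.05, edgeR gave 0, 1 and 0 of them in the same order, the 1 being NFKB2. Translational efficiency, taken as the change in footprints beyond that in mRNA in one model with the lysate as a block, also gave 0 calls for both genes with edgeR and with DESeq2 (2.38%, 1.43% and 0.346% of 4618 genes called by edgeR). Its unadjusted p was under 0.05 in 0, 1 and 0 cases. The 1 case was NFKB2 in old against young, with a log2 difference of 0.83 (95% interval 0.17 to 1.49, adjusted p = 0.261). For NFKB2 in ICM against young it was 0.61 (-0.45 to 1.68), and for RELA 0.18 (-0.69 to 1.05) in ICM and -0.20 (-0.81 to 0.40) in old cells.

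NFKBIA did not pass the filter, but its raw footprints differed between conditions. There were 1, 35 and 100 in young, 42, 0 and 19 in old and 1, 0 and 1 in ICM replicates. Summed over replicates this makes 55.3 CPM of CDS reads in young (exact Poisson 95% interval 46.4 to 65.4), 26.4 in old (20.2 to 33.9) and 5.71 in ICM cells (0.69 to 20.6). The intervals of young and old cells were apart, and those of old and ICM cells met. These intervals cover counting error only, and the deepest library supplied most of the young and most of the old footprints. With no filter, NFKBIA was called in ICM against young (log2 change -3.36, SE 0.86, adjusted p = 0.00222), as it was among genes with a mean of at least 10 counts (-3.21, adjusted p = 0.00406). Without young replicate 1 and old replicate 2 it passed the filter and was called too (-3.35, adjusted p = 0.00202). These calls use the same 2 ICM footprints and are not separate support. Where a count limit applied, NFKBIA passed it through its young and old counts. In old against young NFKBIA was -0.88 with no filter and not called (adjusted p = 0.0791), but it passed the filter and was called with young and old libraries alone (-0.90, adjusted p = 0.00657). The translational efficiency of NFKBIA with no filter was -2.30 in ICM against young (SE 0.97, adjusted p = 0.274), which was not called.

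NFKB1 footprints numbered 1, 38.5 and 107.5 in young, 47, 2 and 19 in old and 9, 0 and 2 in ICM replicates. Summed, this was 59.8 CPM in young (50.5 to 70.3), 29.4 in old (22.8 to 37.3) and 31.4 in ICM cells (15.7 to 56.2). The young interval was above the old one and overlapped that of ICM. With no filter the old-young change was -0.83 (adjusted p = 0.0886), and with the young and old libraries alone NFKB1 was called (-0.85, adjusted p = 0.00631). Without young replicate 1 (-0.93, adjusted p = 0.0242) it was called as well.

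The remaining 5 genes were near the limit of detection. RELB had 16.3 CPM in young (11.6 to 22.2), 8.22 in old (4.95 to 12.8) and 2.86 in ICM cells (0.07 to 15.9), the last from 1 footprint. NFKBIE had 12.2 in young (8.23 to 17.4), 10.4 in old (6.65 to 15.5) and 22.8 in ICM cells (9.86 to 45.0), so that its fall in mRNA under ICM had no counterpart detectable at this depth. REL had 14, 5 and 5 footprints and TNFAIP3 9, 2 and 1 in young, old and ICM cells. BIRC3 had 3 and 4 in young and old cells and 0 of 350260 CDS reads in ICM cells, where a floor of 3 counts is 8.57 CPM and the exact Poisson interval reaches 10.5 CPM. In young cells BIRC3 had 8 reads in its 5′ UTR (0, 2 and 6 by replicate) beside those 3 in its CDS.

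**Figure D4:**
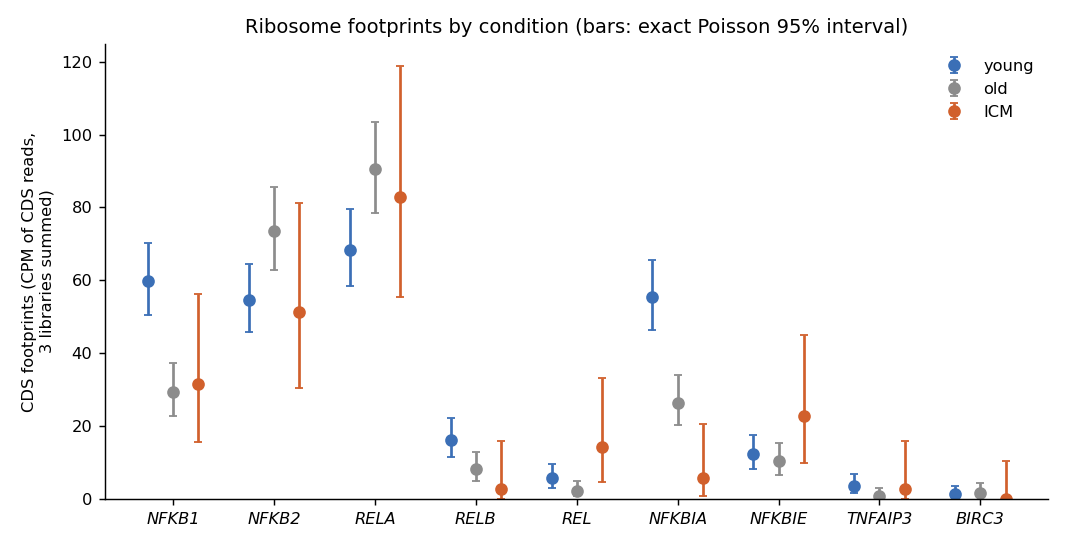
CDS footprints in CPM of CDS reads (y axis, from 0) of each gene (x axis) in young, old and ICM cells, summed over 3 libraries each, with exact Poisson 95% intervals for counting error. NFKB1 and NFKBIA have young intervals above the old ones, and ICM intervals are wide because only 350260 CDS reads were counted.

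Other genes of the pathway were read from 3 lists, described by their counts. The first held 29 receptors, adaptors and kinases upstream of NF-κB, all of which were tested by mRNA-seq. In ICM against young 8 rose and 8 fell (median log2 change 0.02), in old against young 12 rose and 7 fell (0.09), and in ICM against old 6 rose and 13 fell (-0.12). Against the background above (71%, 66.1% and 63.3% of all genes called in either direction), 16, 19 and 19 of 29 were called. TRAF5, an adaptor of TNF receptor family members, fell most under ICM, from 24.7, 23.9 and 24.8 CPM in young to 6.16, 6.11 and 4.92 CPM in ICM libraries (log2 change -2.09, SE 0.12), with 12.7, 12.4 and 10.3 CPM in old. TRAF2, which recruits BIRC3 to receptors, fell by 1.10 in ICM (SE 0.13).

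Of the receptors, IL1R1, the signalling receptor for interleukin-1, was at 62.5, 64.9 and 60.7 CPM in young, 45.3, 45.8 and 46.8 CPM in old and 129, 139 and 133 CPM in ICM libraries. It rose by 1.09 in ICM against young (SE 0.06) and fell by 0.45 in old cells (adjusted p = 3.90e-06), and the ICM-old difference was 1.54 (SE 0.06). IL1RAP, its co-receptor, rose by 1.08 in old cells (SE 0.12) and lay 1.27 lower in ICM than in old cells. In ICM against young IL1RAP changed by -0.20, which was not called (adjusted p = 0.199, edgeR). IRAK4, a kinase downstream of interleukin-1 and Toll-like receptors, rose by 1.29 in ICM (SE 0.08).

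MAP3K14 encodes NIK, the kinase that starts the non-canonical branch. It fell by 1.65 in old cells (SE 0.11), from 21.5, 23.6 and 21.6 CPM in young to 7.96, 6.23 and 7.42 CPM in old libraries. ICM libraries held 15.8, 16.1 and 15.3 CPM, between those groups, and were above old cells by 1.15 (SE 0.11). TNFRSF1B, a TNF receptor, fell by 1.51 in old cells (SE 0.11).

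The second list held 23 other inhibitors and modulators, of which 22 were tested and IL1RN was not. In ICM against young 5 rose and 6 fell (median 0.05), in old against young 10 rose and 5 fell (0.04), and in ICM against old 3 rose and 9 fell (-0.17). The calls in either direction were 11, 15 and 12 of 22, beside 71%, 66.1% and 63.3% of all genes, and over all genes the upward and downward shares were 34.9% and 36.1%, 32.4% and 33.7%, and 30.7% and 32.6%. BCL3, an IκB family protein that acts in the nucleus on p50 and p52, was also lower, at 56.3, 54.7 and 41.8 CPM in young, 20.2, 16.3 and 18.4 CPM in old and 14.9, 15.2 and 12.6 CPM in ICM libraries. It fell by 1.83 in ICM (SE 0.11) and by 1.48 in old cells (SE 0.11). NFKBIZ, another nuclear IκB, rose in old cells by 1.27 (SE 0.11) and was 1.64 lower in ICM than in old cells.

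TNIP1, a partner of A20, rose by 1.16 in old cells (SE 0.07) and was 1.06 lower in ICM than in old cells. TAX1BP1, another A20 adaptor, rose by 0.83 in ICM (SE 0.06). RNF11, a further subunit of the A20 complex, rose by 0.66 in ICM (SE 0.06) and by 0.92 in old cells (SE 0.06), in the opposite direction to TNFAIP3 itself. SIGIRR, a receptor that dampens interleukin-1 signalling, fell by 0.74 in ICM (SE 0.12) and was 0.64 lower in ICM than in old cells. PDLIM2, a ubiquitin ligase for RELA, was 0.78 lower in ICM than in old cells (SE 0.06).

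The third list held 35 textbook targets of NF-κB, and 25 were tested by mRNA-seq. In ICM against young 10 rose and 12 fell (median -0.13), in old against young 14 rose and 6 fell (0.41), and in ICM against old 7 rose and 11 fell (-0.13). The calls in either direction were 22, 20 and 18 of 25, beside the same shares of all genes (34.9% up and 36.1% down, 32.4% and 33.7%, and 30.7% and 32.6%). Both adhesion molecules of the list fell in ICM. ICAM1 had 103, 85.0 and 86.2 CPM in young, 46.9, 45.7 and 48.9 CPM in old and 5.41, 8.33 and 5.26 CPM in ICM libraries, and fell by 3.86 in ICM (SE 0.12). VCAM1 fell by 3.12 in ICM (SE 0.09) and by 1.55 in old cells (SE 0.08).

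Among the cytokines and chemokines, directions differed. IL32 was at 46.8, 36.9 and 33.2 CPM in young, 50.6, 46.9 and 41.9 CPM in old and 1.65, 0.93 and 1.53 CPM in ICM libraries, falling by 4.78 in ICM against young (SE 0.18) and lying 5.05 lower than in old cells. CXCL8, the neutrophil chemokine interleukin-8, rose instead, from 1.86, 0.87 and 0.95 CPM in young to 9.999, 13.6 and 27.7 CPM in old and 17.0, 18.2 and 16.4 CPM in ICM libraries. Its change was 3.86 in both comparisons with young cells (SE 0.37 in each). The highest old library for CXCL8 was old replicate 3, which was also the highest old library for 7 of the 9 genes, REL and NFKBIE being the exceptions. For RELA it was nearly level with old replicate 1 (133.6 and 133.3 CPM). The share of all genes highest in old replicate 3 was not computed, so the count is a description only.

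LIF, an interleukin-6 family cytokine, fell by 1.71 in old cells (SE 0.08), and TNFAIP2 fell by 1.54 (SE 0.12). PTGS2, which encodes cyclooxygenase-2, was 2.07 higher in ICM than in old cells (SE 0.21), and PTX3, a secreted pattern recognition protein, was 2.80 lower (SE 0.07). CSF2, chosen after its values were seen, had 78 reads in old and 0 in all 3 ICM libraries, where the floor of 3 counts over the group makes it at least 26.8-fold lower in ICM than in old cells. Setting CSF2 at that bound left the list's median at -0.13.

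**Figure D5:**
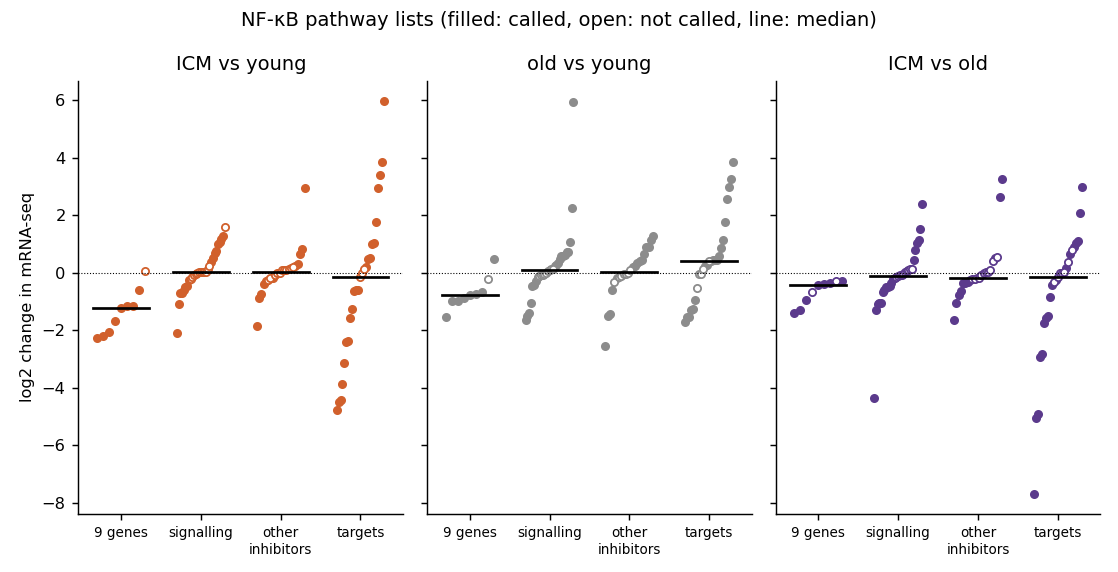
Log2 change in mRNA-seq (y axis) of every tested gene among the 9 genes, 29 signalling genes, 22 other inhibitors and 25 targets (x axis), in 3 comparisons, sorted within a list. Filled points were called, lines are medians, the 9 genes have medians of -1.23, -0.78 and -0.44, and the lowest point of ICM against old is CSF2, which had no read in ICM.

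In footprints, 10 of the 35 targets were tested, and 4 fell and 0 rose in ICM against young (12.9% of all genes tested were called downward). The other 25 did not pass the filter on low counts, PTGS2 and CXCL8 among them. The balance of falls and rises thus describes the tested targets and not the list. The genes that fell were VCAM1 at -2.84 (SE 0.36), ICAM1 at -2.76 (SE 0.57, but -1.71 and not called without ICM replicate 1, adjusted p = 0.0594), PTX3 at -1.93 (SE 0.29) and PLAU, the urokinase gene, at -0.98 (SE 0.22). Their ICM footprints summed over replicates were few, at 21, 6, 42 and 135.5 in the same order. In old against young VCAM1 fell by 1.70 (SE 0.23), while 4 of the 10 rose, GADD45B, IER3, IRF1 and PTX3, by 1.22, 1.37, 1.17 and 0.53 (17% of all genes were called downward and 19.3% upward). DESeq2 called VCAM1 but none of those 4. IRF1 also lost its call without young replicate 2 or 3 or old replicate 1 or 3 (1.01 to 1.19), and PTX3 without any 1 of the young libraries or old replicate 1 or 3 (0.37 to 0.55). GADD45B passed the filter on low counts through its old libraries alone (62.6, 80.5 and 75.9 CPM). Its young libraries held 19.8, 25.6 and 31.8 CPM. IRF1 passed it through old and ICM libraries and not through young ones. For both genes the filter itself thus favoured a rise in old cells. Of the 6 signalling genes and 5 other inhibitors tested, 2 of each were called in old against young, where 36.3% of all genes were, and DESeq2 called none of the 4 (TRADD, LTBR, TNIP1 and PDLIM2). In ICM against young 2 of the 6 signalling genes were called, TRADD and LTBR, where 26.6% of all genes were, and neither call held with no filter on low counts (adjusted p = 0.0597 and 0.0994). TRADD passed the filter through old and ICM libraries, with 0, 6.39 and 17.8 CPM in young ones. The filter thus favoured its rise in both comparisons with young cells.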

How the data were processed

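One table per library was used. In it the authors deposited estimated counts by gene symbol, with a column per transcript region or class and no scaling to depth. The submitters' processing notes name STAR 2.6.0c, featureCounts, DESeq2, deepTools and GRCh37, without roles, and the placement of reads with several matches is not given in the sources used here. The methods say that one lysate was divided between Ribo-seq and poly(A) mRNA-seq. Groups and replicate numbers came from sample titles. The members and lists were chosen with earlier results of these data known.

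Counts were rounded to whole numbers, and mRNA-seq (5′ UTR, CDS and 3′ UTR together) and Ribo-seq (CDS) were each fitted over all 9 libraries with edgeR 4.0.16 in R 4.3.3 (TMM scaling, filterByExpr, quasi-likelihood test, two-sided). Benjamini-Hochberg adjustment ran over all genes tested, and a gene was called at an adjusted p under 0.05. Translational efficiency was the interaction of assay and condition over 18 libraries with the lysate as block. Deviations of the 2 libraries of a lysate correlated at -0.0703 to 0.125, and the pairing comes from the methods. P-values measure the spread between these cultures only. Both models were tested on simulated data with 2-fold changes in ICM against young. They recovered 94% of the changed genes by mRNA-seq, 61% by Ribo-seq and 53.6% for translational efficiency, with 10, 9 and 2 false calls. These shares are over random genes past the filter, which 7 of the 9 genes did not pass in Ribo-seq. The 2 assays were simulated independently, without a lysate effect, so the use of the lysate block was not tested by it. DESeq2 1.42.0, RLE scaling, other filters, CDS reads only, only the compared groups, a replicate block and leaving out each library were alternatives.

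Levels between genes were CDS reads in CPM and per kilobase of coding length, which came from GENCODE because the RefSeq proteins planned for it were not used here. All 9 members were named. From each list and mRNA-seq comparison, the 4 called genes with the largest change, a mean of at least 5 CPM and no overlap between groups were named, with the 3 genes most like the member of widest range. Genes named for footprints, IL1R1 and IL1RAP values outside their comparisons, and CSF2 were added after their values were seen. Ribo-seq depth was low, with 350260 CDS reads over the ICM libraries.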

Additional observations from a re-analysis of the deposited data

How the results depend on the processing

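All 36 named mRNA-seq changes of list genes kept their direction and call in every alternative run. Of the 27 mRNA-seq changes of the 9 genes, all kept their direction except RELA in ICM against young, which was not called and ranged from -0.01 (-0.00791) to 0.10 when single libraries were left out. Leaving out single libraries gave 8 to 8, 8 to 9 and 5 to 8 of the 9 genes called by mRNA-seq in ICM against young, old against young and ICM against old. With CDS reads only, REL was below the filter and 7, 7 and 6 were called. Libraries of the same replicate number in 2 conditions correlated weakly in their deviations (-0.0466 to 0.0983 over both assays). A library correlated best with its own number in 8 of 18 cases by mRNA-seq and 14 of 18 by Ribo-seq. In Ribo-seq these correlations were all above 0, at 0.00335 to 0.0468. A weak pairing by number is thus not excluded for Ribo-seq, and the main fit left the number out. By mRNA-seq with the replicate block, NFKB2 in old against young (-0.20, adjusted p = 0.04) and TNFAIP3 in ICM against old (-0.70, adjusted p = 0.0442) became calls, so that 9 and 8 genes were called, and 8 in ICM against young.

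In Ribo-seq, the count of called members in ICM against young went from 0 to 1 with no filter, to 1 with a mean of at least 10 counts and to 1 without young replicate 1 and old replicate 2 together, the gene being NFKBIA each time. Each of these calls rests on the same 2 ICM footprints. Leaving out single libraries gave 0 to 1. In old against young it was 3 with only the compared groups and 0 to 3 without single libraries. Uncalled changes that turned sign were NFKB2 Ribo-seq in ICM against young (0.19 with the replicate block, -0.56 to 0.20 without single libraries) and RELA Ribo-seq in ICM against old (0.33 with DESeq2, 0.0362 with only the compared groups, 0.0674 with the replicate block, -0.59 to 0.59 without single libraries). RELA Ribo-seq in ICM against young ran from -0.14 to 1.05 without single libraries. For translational efficiency, RELA was -0.0125 with no filter in ICM against young (-0.26 to 0.96 without single lysates), 0.00577 with no replicate block in old against young and -0.0887 to 1.12 without single lysates in ICM against old, and NFKB2 in ICM against young ran from -0.00897 to 0.86. The cause of these shifts was not tested. Alternatives for the list genes named for footprints were added after seeing the data. For these 15 changes no direction turned. Single libraries left out kept the call in 98 cases and lost it in 24, and the other settings kept it in 85 and lost it in 19.

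Over all genes, Ribo-seq calls in ICM against young were 1236, but 688 with DESeq2, 813 with only the compared groups and 741 with the replicate block. In old against young they were 1685, but 530, 3142 and 653, and in ICM against old 623, but 341 with DESeq2. Calls for translational efficiency were 110, 66 and 16, but 34, 15 and 7 with DESeq2 and 305, 409 and 60 with no replicate block, and 43 with no filter in ICM against old.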
